A study of Mus musculus with 4 samples.

Results

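Fibroblast growth factors (FGFs) and their receptors were followed through RNA sequencing of mesenchymal stem/progenitor cells (MSPCs), the fibroblast-like stromal cells that grow out of mouse bone marrow. The genes described are 6 ligands (Fgf2, Fgf5, Fgf7, Fgf10, Fgf18 and Fgf21) and 4 receptors (Fgfr1, Fgfr2, Fgfr3 and Fgfrl1), chosen by symbol; all 10 were found among the 23997 symbols of the expression table, each with a single row. The 2 wild-type (WT) and 2 Asxl1-/- libraries came from cells with a C57BL/6 background at passages 5 to 10, grown in MesenCult medium. Asxl1 encodes a chromatin regulator that works with the BAP1 histone deubiquitinase; the labels give neither the design of the deletion nor the age or number of the mice, and do not state if each library is a different animal. The p-values therefore measure the spread between these libraries, which may be technical in part.

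FGFs are secreted proteins that bind receptor tyrosine kinases together with heparan sulfate, a sugar chain of the cell surface and matrix. The activated receptor passes its signal through the adaptor FRS2 to RAS and the ERK kinases, which switch on ETS-family transcription factors and also the Sprouty and DUSP proteins that dampen the signal. In the bone marrow, stromal cells make FGFs as well as respond to them, and FGF2 is a common additive for growing such cells. FGF7 and FGF10 are ligands typical of mesenchyme that signal to the epithelial splice form of FGFR2. Gene-level values cannot tell the splice forms of the receptors apart.

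Levels are given as FPKM, fragment numbers adjusted for library total and for transcript length, a scale that therefore allows genes to be compared. Asxl1 itself stood at 14.6 and 11.2 FPKM in WT and at 0.273 and 0.312 FPKM in Asxl1-/-, as the labels have it. From 10946 to 11359 symbols per library reached 1 FPKM. The number of reads is unknown. Depths relative to WT replicate 1 were sought only near equality and lay between 0.956 and 1.03, so a large difference in depth could not have shown. Of 12 stromal markers, 11 and 10 reached 1 FPKM in the WT libraries and 9 in each Asxl1-/- library. The collagen gene Col1a1 (1298 to 2043 FPKM), the PDGF receptor gene Pdgfrb (49.2 to 135 FPKM) and Thy1 (33.7 to 162 FPKM) were high throughout. The marrow stromal marker Lepr was at most 0.0426 FPKM, and Eng passed 1 FPKM in WT replicate 1 alone. Nt5e stood at 2.31 and 7.19 FPKM in WT and at 0.493 and 0.507 FPKM in Asxl1-/-. Pdgfra stood at 4.78 FPKM in WT replicate 2 and at 58.8 to 80.9 FPKM in the other libraries. Ly6a ranged from 70.0 to 1059 FPKM. Macrophage markers split the libraries across the genotypes: 13 of 14 had a row, and their summed level was 7.48 FPKM in WT replicate 1 and 8.53 FPKM in Asxl1-/- replicate 1 against 530 and 361 FPKM in the replicates 2. Epithelial markers summed to at most 0.502 FPKM in every library. In bulk RNA a smaller number of expressing cells and less RNA per cell cannot be told apart.

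Among the FGF genes, 1 ligand and 1 receptor held most of the RNA. Fgf7 stood at 159 and 221 FPKM in WT and at 88.9 and 186 FPKM in Asxl1-/-, above 96.7% to 98.8% of all symbols in each library. Fgfr1 followed at 60.9 and 52.7 FPKM in WT and at 39.5 and 49.3 FPKM in Asxl1-/-. By the mean of the 4 libraries the order went on with Fgfrl1 (11.3 ± 4.56 FPKM, SD, n = 4), Fgfr2 (6.61 ± 5.02), Fgf2 (2.45 ± 1.42) and Fgf10 (2.16 ± 1.39). Fgf18, Fgfr3, Fgf21 and Fgf5 closed it, each under 1 FPKM in every library. Neighbours in this order had ranges that did not overlap at 3 places: between Fgf7 and Fgfr1, between Fgfr1 and Fgfrl1, and between Fgf10 and Fgf18. The 4 genes from Fgfrl1 to Fgf10 overlapped each with the next, as did the 4 lowest.

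**Figure D1:**
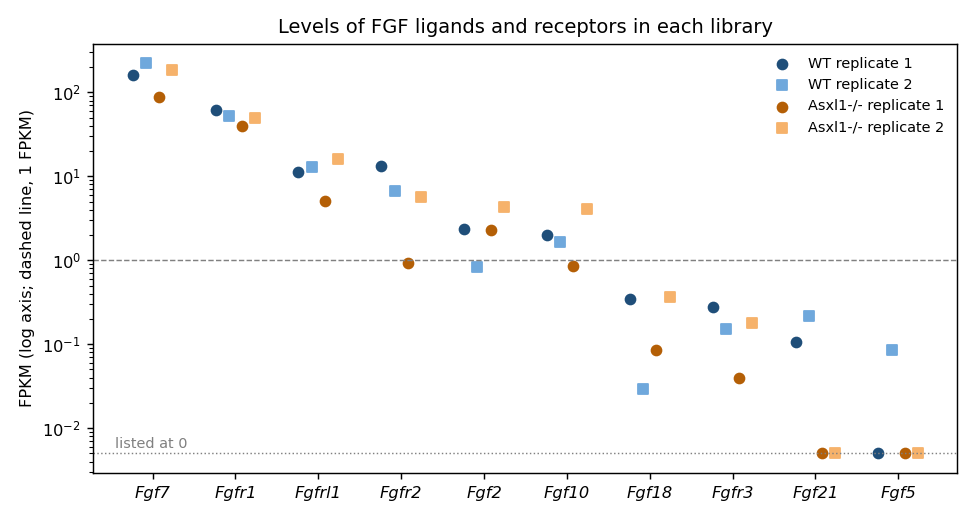
FPKM on a log axis for each of the 10 genes, ordered by their mean; each point is 1 library, circles are replicates 1 and squares replicates 2, blue WT and orange Asxl1-/-. Fgf7 and Fgfr1 lie above the other genes in all 4 libraries, 4 genes lie under the dashed line of 1 FPKM, and values listed at 0 are drawn on the dotted line.

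Of the 10 FGF genes, 9 had an entry among the RefSeq promoter sequences (build GRCm38.p6, the coordinates of mm10), and the 250 bases before the start site used by the expression table were searched for 5 motifs on both strands. These were the TATA box (TATAAA, in 12.4% of the 32851 promoters of that length in the table), the GC box (GGGCGG, in 32.7%), the CCAAT box (CCAAT, in 33.8%), an ETS site (CCGGAAGT, in 2.88%) and the E-box (CACGTG, in 6.02%). Shown in the order below are the promoters of the most abundant ligand, of the receptor with the widest range between libraries, of the kinase-free receptor that was lowest in the same library, and of a ligand that was nearly silent. Capitals mark motif matches.
Fgf7, chr2:126034408-126034657, plus strand: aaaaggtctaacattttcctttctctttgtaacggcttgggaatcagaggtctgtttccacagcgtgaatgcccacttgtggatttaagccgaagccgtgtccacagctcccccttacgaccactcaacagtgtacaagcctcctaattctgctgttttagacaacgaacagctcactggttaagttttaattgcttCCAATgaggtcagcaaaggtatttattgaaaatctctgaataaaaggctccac
Fgfr2, chr7:130266809-130267058, minus strand: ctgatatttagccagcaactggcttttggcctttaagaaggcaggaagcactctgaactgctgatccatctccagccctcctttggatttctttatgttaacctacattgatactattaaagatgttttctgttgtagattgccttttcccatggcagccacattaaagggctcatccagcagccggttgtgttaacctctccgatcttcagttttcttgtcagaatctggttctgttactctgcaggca
Fgfrl1, chr5:108693979-108694228, plus strand: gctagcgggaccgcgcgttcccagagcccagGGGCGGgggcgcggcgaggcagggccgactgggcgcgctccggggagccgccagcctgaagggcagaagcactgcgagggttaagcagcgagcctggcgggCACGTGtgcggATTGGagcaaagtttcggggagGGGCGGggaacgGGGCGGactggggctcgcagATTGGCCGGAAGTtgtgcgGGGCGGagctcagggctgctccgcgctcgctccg
Fgf5, chr5:98253934-98254183, plus strand: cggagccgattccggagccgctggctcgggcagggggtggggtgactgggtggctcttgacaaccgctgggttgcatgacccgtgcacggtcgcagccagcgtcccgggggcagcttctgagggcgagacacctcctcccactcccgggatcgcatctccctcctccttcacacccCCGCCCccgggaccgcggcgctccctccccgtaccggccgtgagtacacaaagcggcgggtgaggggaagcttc
The Fgf7 window held 6 CpG dinucleotides, equal to the median of all promoters, and 1 CCAAT box. The Fgfr2 window held 2 CpG and none of the 5 motifs. The Fgfrl1 window, with 30 CpG, held 4 GC boxes, 2 CCAAT boxes, an E-box and an ETS site that directly adjoins a CCAAT box. The nearly silent Fgf5 had 24 CpG, more than 88.0% of promoters, so CpG number did not follow the order of the levels among these 4 genes. In the GENCODE annotation no transcript of Fgfr2 or Fgfrl1 begins at the start used here. That annotation carries Fgfr2 on to base 133123350, upstream of its window. Other starts were not searched, and a match or its absence describes these letters alone.

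Ligand RNA was dominated by Fgf7, a growth factor that mesenchyme supplies to neighbouring epithelium. Of the 22 ligand rows of the table, 7 were listed at 0 in all 4 libraries and 4 had a mean of at least 1 FPKM (Fgf7, Fgf2, Fgf10 and Fgf23). Fgf7 made up 95.6% and 98.1% of the summed ligand FPKM in WT and 95.0% and 90.3% in Asxl1-/-. It was lowest in Asxl1-/- replicate 1, and Asxl1-/- replicate 2 lay between the WT libraries, so the groups overlapped. The group means were 190 ± 43.8 FPKM in WT and 138 ± 68.8 FPKM in Asxl1-/- (SD, n = 2 each).

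Whether a gene differed between the genotypes was tested with limma on log2(FPKM + 1) over all 11485 rows with a mean of at least 1 FPKM. Fold changes are Asxl1-/- minus WT on that scale and understate changes of low genes. Fgf7 had a log2 fold change of -0.54 (standard error 0.44, 95% interval -1.72 to 0.63, limma adjusted p = 0.779). Without Asxl1-/- replicate 1 it was -0.01, without Asxl1-/- replicate 2 it was -1.07, and without WT replicate 2 it was -0.31. Fgf7 lies on mm10 chromosome 2 (126034658 to 126091185, plus strand) within the bases of Fam227b on the other strand, and the strandedness of the libraries is not given in the sources used here. Fam227b was listed at 0 in 3 libraries and stood at 0.0486 FPKM in the fourth, Asxl1-/- replicate 2.

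Fgf10, which shares its main receptor with Fgf7, was far lower and varied more within Asxl1-/- than between the genotypes. It stood at 2.00 and 1.66 FPKM in WT, at 0.861 FPKM in Asxl1-/- replicate 1 and at 4.13 FPKM in Asxl1-/- replicate 2. Both WT libraries lay between the Asxl1-/- libraries, and Fgf7 exceeded Fgf10 by 45.1 to 133 times within a library. Its log2 fold change was 0.13 (standard error 0.58, 95% interval -1.39 to 1.65, limma adjusted p = 0.968). Its sign turned without Asxl1-/- replicate 2, at -0.60, and the value was 0.86 without Asxl1-/- replicate 1. The gene lies on chromosome 13 (118714699 to 118792573, plus strand), with an antisense transcript annotated across it.

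Fgf2, a ligand without a classical secretion signal that supports growth of stromal cells, had its highest level in Asxl1-/- replicate 2. Its FPKM were 2.38 and 0.835 in WT and 2.31 and 4.29 in Asxl1-/-. WT replicate 1 lay marginally above Asxl1-/- replicate 1, so the groups overlapped. The group means of 1.61 ± 1.09 and 3.30 ± 1.40 FPKM (SD, n = 2 each) went with a log2 fold change of 0.75 (standard error 0.47, 95% interval -0.50 to 2.00, limma adjusted p = 0.714). The value was 1.19 without WT replicate 1, 0.31 without WT replicate 2 and 0.41 without Asxl1-/- replicate 2. Fgf2 lies on chromosome 3 (37348653 to 37404830, plus strand). Annotated across it are a transcript on the same strand, Gm43439, and transcripts on the other strand. Nudt6 begins at base 37404982, just past this end of Fgf2, but the GENCODE annotation carries Fgf2 on to 37410108, into Nudt6. Nudt6 stood at 2.13 to 2.70 FPKM in the 4 libraries.

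The other 3 ligands were near the floor. Fgf18, a factor of bone and cartilage growth, stood at 0.347 and 0.0294 FPKM in WT and at 0.0843 and 0.363 FPKM in Asxl1-/-, and the groups overlapped. Fgf21, a metabolic hormone made mainly by the liver, stood at 0.106 and 0.215 FPKM in WT and was listed at 0 in both Asxl1-/- libraries. Fgf5, known as a regulator of the hair cycle, was listed at 0 in 3 libraries and stood at 0.0844 FPKM in WT replicate 2. None of these passed the filter on low values. In a fit without that filter the smallest unadjusted limma p of the 3 was that of Fgf21, at 0.0285, with an adjusted p of 0.658.

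Fgf23, the phosphate-regulating hormone of bone cells, is not among the 10 genes but was the remaining ligand with a mean above 1 FPKM. Its FPKM were 0.428 and 0.217 in WT, 0.0148 in Asxl1-/- replicate 1 and 9.98 in Asxl1-/- replicate 2. A single library thus carried nearly all of it, and the log2 fold change of 1.34 had a standard error of 1.19 (limma adjusted p = 0.798). The 6 osteoblast markers summed to 14.7 and 34.1 FPKM in WT and to 5.75 and 7.86 FPKM in Asxl1-/-, and the osteocyte gene Dmp1 among them was highest in WT replicate 2, at 5.60 FPKM, and at 0.328 FPKM in Asxl1-/- replicate 2. Their part in the Fgf23 level was not tested.

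Fgfr1, the chief FGF receptor of mesenchymal cells, was the steadiest of the tested genes. Both Asxl1-/- libraries, at 39.5 and 49.3 FPKM, lay below both WT libraries, at 60.9 and 52.7 FPKM, and the highest value was 1.54 times the lowest. Fitted by limma, Fgfr1 had a log2 fold change of -0.35 (standard error 0.25, 95% interval -1.01 to 0.31, adjusted p = 0.749). It was -0.20 without Asxl1-/- replicate 1, and it kept its sign without each other library. In the authors' deposited table WT stood at 65.7 and Asxl1-/- at 55.8 FPKM (log2 fold change -0.24, q = 0.999). Fgfr1 lies on chromosome 8 (25518759 to 25575718, plus strand), with an antisense transcript annotated across it.

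Fgfr2, the receptor through which FGF7 and FGF10 act on epithelia and which osteogenic cells also use, had the largest fold change of the tested members. It stood at 13.1 and 6.67 FPKM in WT, at 0.930 FPKM in Asxl1-/- replicate 1 and at 5.72 FPKM in Asxl1-/- replicate 2. The groups did not overlap, yet Asxl1-/- replicate 2 lay close under WT replicate 2, and the highest library exceeded the lowest 14.1 times. WT averaged 9.90 ± 4.57 and Asxl1-/- 3.33 ± 3.39 FPKM (SD, n = 2 each). This came to a log2 fold change of -1.53 (standard error 0.70, 95% interval -3.38 to 0.32, limma adjusted p = 0.632, unadjusted p = 0.0859). It was -0.63 without Asxl1-/- replicate 1 and -2.43 without Asxl1-/- replicate 2.

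Fgfr2 stood at 11.4 FPKM in WT and 4.18 FPKM in Asxl1-/- in the authors' deposited table (log2 fold change -1.44, p = 0.0213, q = 0.471) and was not marked significant. There, 4.11% of the 12881 rows tested had a p under 0.05 and a lower value in Asxl1-/-. Fgf5, Fgf18, Fgf21 and Fgfr3 were not tested in that table of the authors, and of the other 6 genes 0 were marked significant, against 0.939% of its tested rows (0.543% higher and 0.396% lower in Asxl1-/-). The sources used here do not name the libraries behind that table, but its group values followed those of the 4 libraries described here. FGF genes listed at 0 in both Asxl1-/- libraries, such as Fgf5 and Fgf21, stood at 0 for Asxl1-/- there too. That table is therefore not an independent measurement. Fgfr2 lies on chromosome 7 (130162451 to 130266808, minus strand). The highest and the lowest Fgfr2 levels were both found in libraries poor in macrophage markers, WT replicate 1 and Asxl1-/- replicate 1. Within each genotype Fgf7 and Fgfrl1 were higher in the library rich in those markers, whereas Fgfr1, Fgfr2, Fgf2 and Fgf10 were lower in it in WT and higher in it in Asxl1-/-. The part of macrophage content in these levels was not tested.

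The balance of the kinase receptors followed from these levels. Fgfr2 made up 17.7% and 11.2% of the summed FPKM of Fgfr1 to Fgfr4 in WT and 2.30% and 10.4% in Asxl1-/-. The ratio of Fgfr1 to Fgfr2 was 4.64 and 7.90 in WT and 42.5 and 8.62 in Asxl1-/-. Asxl1-/- replicate 2 was thus close to WT replicate 2, and Asxl1-/- replicate 1 stood apart with almost pure Fgfr1. These shares and ratios are given as a description. An exact permutation test of 2 libraries against 2 cannot give a two-sided p below 0.333.

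**Figure D2:**
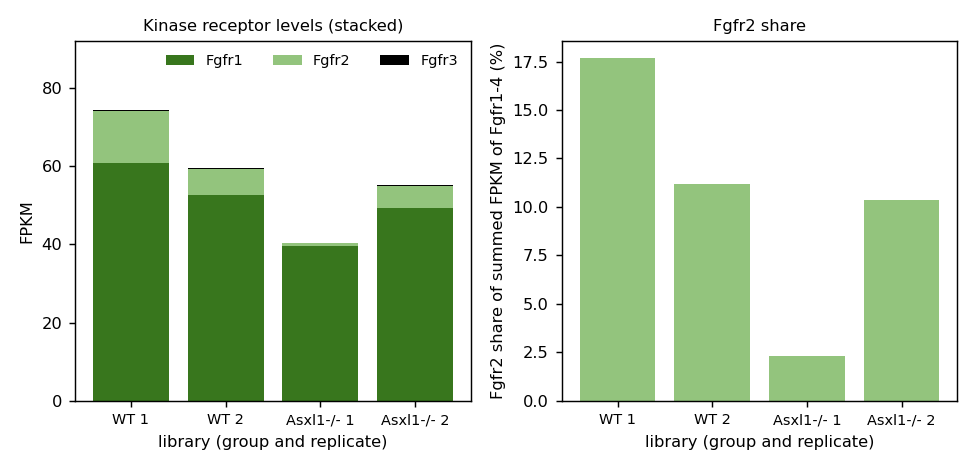
Left, stacked FPKM of the kinase receptors Fgfr1, Fgfr2 and Fgfr3 in each library; right, Fgfr2 as a percentage of the summed FPKM of Fgfr1 to Fgfr4. Each bar is 1 library; the Fgfr2 share is 17.7% and 11.2% in WT and 2.30% and 10.4% in Asxl1-/-.

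Fgfr3, a receptor best known for restraining growth of cartilage, was near the floor, at 0.274 and 0.154 FPKM in WT and at 0.0393 and 0.177 FPKM in Asxl1-/-. The 6 chondrocyte markers summed to 22.8 and 9.69 FPKM in WT and to 6.39 and 9.25 FPKM in Asxl1-/-, of which Sox9 gave 11.9, 9.25, 5.96 and 8.61 FPKM and Comp 10.2 FPKM in WT replicate 1, while the cartilage matrix genes Col2a1 and Acan were at most 0.546 and 0.0265 FPKM. Their part in the Fgfr3 level was not tested. Fgfr3 did not pass the filter, and its groups overlapped. It lies on chromosome 5 (33721724 to 33737068, plus strand).

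Fgfrl1 encodes a receptor that binds FGFs but has no kinase domain and is counted among the dampers of the pathway. It stood at 11.4 and 12.8 FPKM in WT, at 5.05 FPKM in Asxl1-/- replicate 1 and at 15.9 FPKM in Asxl1-/- replicate 2. The Asxl1-/- libraries thus held both the lowest and the highest value, around closely matched WT libraries (12.1 ± 0.964 FPKM, SD, n = 2). Fgfrl1 had a log2 fold change of -0.37 (standard error 0.54, 95% interval -1.79 to 1.05, limma adjusted p = 0.876). It was 0.37, the other sign, without Asxl1-/- replicate 1 and -1.11 without Asxl1-/- replicate 2. Fgfrl1 lies on chromosome 5 (108694229 to 108706950, plus strand).

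**Figure D3:**
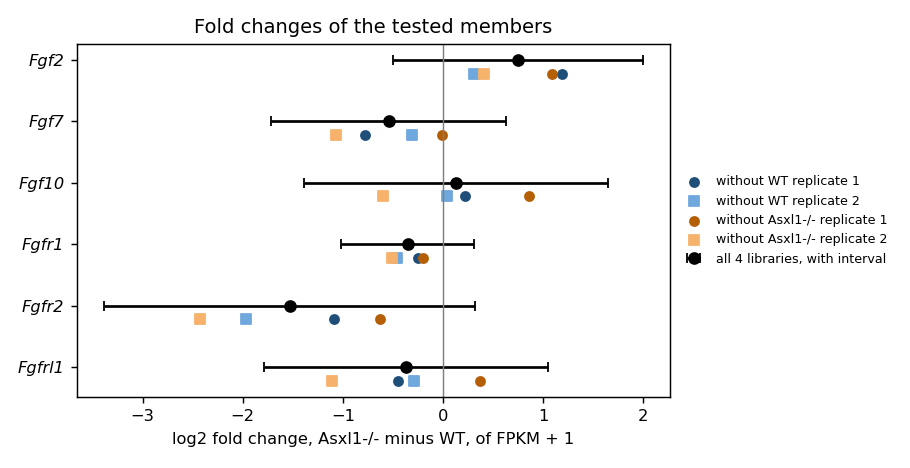
Log2 fold changes (Asxl1-/- minus WT, of FPKM + 1) of the 6 tested genes; black points with bars are the fit to all 4 libraries with its 95% interval, coloured points the fits that leave out 1 library. All 6 intervals include 0, and Fgf10 and Fgfrl1 change sign with a library left out.

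Counted together, 6 of the 10 genes passed the filter on low values, and 0 of these 6 were called at a limma adjusted p under 0.05, in either direction. Over all rows tested, 0% were called higher and 0.0261% lower (3 rows). The deleted gene Asxl1 was itself not called (log2 fold change -3.41, limma adjusted p = 0.215), so the threshold misses even a large difference. In the authors' deposited table Asxl1 was marked significant (Cuffdiff q = 0.00836). At an unadjusted limma p under 0.05, 0 of the 6 passed, against 7.91% of all rows (2.51% higher and 5.41% lower). For 2 of the 6, Fgfr1 and Fgfr2, each Asxl1-/- library was under each WT library, as for 25.2% of all rows; the reverse held for 0 of the 6 and for 15.6% of all rows. The median log2 fold change of the 6 was -0.36 with 4 of 6 negative, beside -0.07 and 56.8% negative over all rows. Without Asxl1-/- replicate 1 the median of the 6 was 0.18, so its sign rested on that library, and without Asxl1-/- replicate 2 it was -0.84. The intervals of the single genes reach past a 2-fold difference in at least 1 direction, so a missed threshold does not show equal levels. Of the rows with an unadjusted p under 0.05, 288 were higher and 621 lower, against 404 and 530 after median ratio scaling and 385 and 512 after quantile normalization.

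What the expressed genes shared was a low level in 1 library. Asxl1-/- replicate 1 was the lowest library for 5 of the 6 tested genes, all but Fgf2, and for 6 of all 10, including each of the 4 receptors. Over all rows tested it was the lowest for 27.2%. Relative to the mean of the 4 libraries on the log2(FPKM + 1) scale, this library stood at -1.67 for Fgfr2, -0.93 for Fgfrl1, -0.80 for Fgf7, -0.67 for Fgf10 and -0.33 for Fgfr1, but at 0.04 for Fgf2. Asxl1-/- replicate 2 was the highest library for 3 of the 6 (Fgf2, Fgf10 and Fgfrl1), against 20.6% of all rows. The Asxl1-/- libraries therefore lay on opposite sides of the WT mean for Fgf10 and Fgfrl1.

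**Figure D4:**
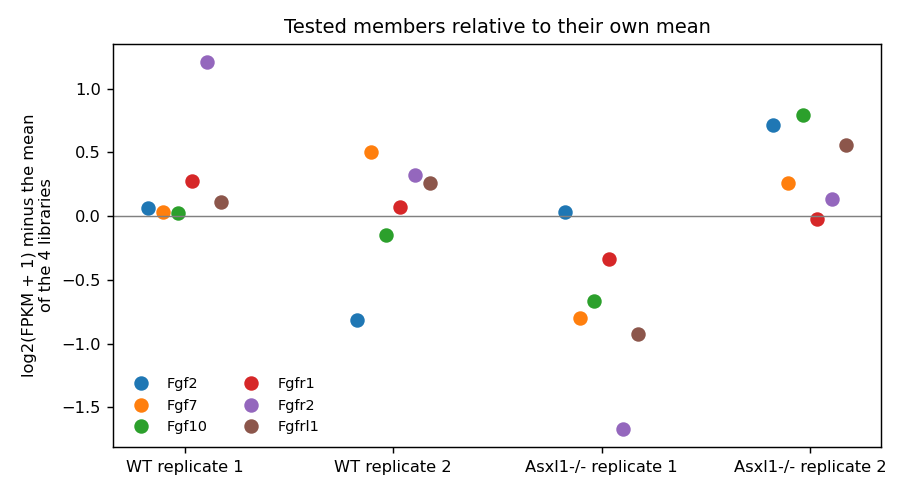
Level of each tested gene in each library, as log2(FPKM + 1) minus the gene's mean over the 4 libraries; each colour is 1 gene. In Asxl1-/- replicate 1 all but Fgf2 lie below 0, down to -1.67 for Fgfr2.

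The genes whose levels ran most like those of Fgf2 and Fgfr2, the ligand and the receptor with the widest range among the 6 tested members, were sought by the distance between centred log2(FPKM + 1) values over the 4 libraries. For Fgf2, with a range of 1.53, the nearest were Ptgs1 (distance 0.134), Farp1 (0.160) and Ankrd37 (0.196). Ptgs1, a prostaglandin synthase gene, stood at 21.0 and 10.5 FPKM in WT and at 22.6 and 34.4 FPKM in Asxl1-/-. For Fgfr2, with a range of 2.87, the nearest were Dapk1 (0.438), Prrg1 (0.448) and Lphn2 (0.474). Dapk1, a death-associated kinase gene, stood at 21.0 and 10.1 FPKM in WT and at 2.58 and 7.18 FPKM in Asxl1-/-. With 4 libraries and 11485 rows some genes lie close to any pattern, and these are a description.

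Genes around the receptors were taken from lists by role. Co-receptors and carriers were few: of the klotho genes, partners of the hormone-like FGFs, Kl was listed at 0 in all 4 libraries and Klb was at most 0.0235 FPKM. Of 9 genes, 4 were tested, with 0 called and a median log2 fold change of -0.32, which was 0.03 without WT replicate 2 and -0.67 without WT replicate 1. Flrt2, a membrane protein of a family that binds FGF receptors, stood at 13.0 and 13.6 FPKM in WT and at 1.81 and 2.15 FPKM in Asxl1-/- (log2 fold change -2.27, standard error 0.24, limma adjusted p = 0.353). Its replicates were close and the groups far apart, though the adjusted threshold was missed. Nrp1, a co-receptor of VEGF and semaphorins that also binds FGFs, stood at 26.7 and 24.0 FPKM in WT and at 41.1 and 57.0 FPKM in Asxl1-/- (limma adjusted p = 0.564).

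Heparan sulfate genes, which shape how FGFs reach their receptors, showed no common direction. Of 22 genes for synthesis and editing 13 were tested, with 0 called, a median of -0.10 and 5 positive; the median was -0.01 without Asxl1-/- replicate 2, -0.04 without WT replicate 2, -0.06 without WT replicate 1 and -0.02 with median ratio scaling. Sulf1, a sulfatase that trims heparan sulfate and lowers FGF binding, stood at 8.18 and 4.19 FPKM in WT and at 74.9 and 21.5 FPKM in Asxl1-/- (log2 fold change 2.58, standard error 0.67, limma adjusted p = 0.553). Both Asxl1-/- libraries exceeded both WT libraries, with a wide spread within each group. Asxl1-/- was above WT without overlap for 3 of the 13 and below it for 2, beside 15.6% and 25.2% of all rows. Besides Sulf1 these were the glycosyltransferase Extl3 (11.8 and 21.0 FPKM in WT, 24.1 and 29.1 in Asxl1-/-), the sulfotransferase Hs6st1 (11.1 and 10.6, 11.3 and 16.1), the polymerase subunit Ext2 (55.2 and 58.7, 46.8 and 50.5) and the xylosyltransferase Xylt2 (8.75 and 8.81, 7.71 and 7.48), the last outside the naming rule.

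Among 12 core proteins that carry heparan sulfate, 10 were tested, with 0 called, a median of 0.01 and 6 positive; without WT replicate 1 the median was -0.23 and without WT replicate 2 it was 0.40. The syndecan Sdc2 stood at 89.0 and 107 FPKM in WT and at 125 and 195 FPKM in Asxl1-/-. The basement membrane proteoglycan gene Hspg2 stood at 53.4 and 53.3 FPKM in WT and at 29.7 and 44.2 FPKM in Asxl1-/-. Without overlap, Asxl1-/- was above WT for 2 of the 10 and below it for 3, beside 15.6% and 25.2% of all rows. Sdc4 was lower, at 69.0 and 61.2 FPKM against 131 and 75.1, and the glypican gene Gpc6 higher, at 32.0 and 17.4 FPKM against 16.6 and 15.1.

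The adaptors and kinases that carry the signal inward were all expressed. All 25 listed genes were tested, with 0 called, 12 positive and 13 negative and a median of -0.08, next to the -0.07 of all rows; the median was 0.01 with median ratio scaling and 0.07 with quantile normalization. The kinase Map2k2 stood at 22.5 and 25.4 FPKM in WT and at 35.0 and 40.3 FPKM in Asxl1-/- (limma adjusted p = 0.618), and the ribosomal S6 kinase Rps6ka2 at 7.11 and 5.57 against 3.37 and 3.46 (limma adjusted p = 0.617). Frs2, the adaptor that docks on FGF receptors, stood at 11.8 and 23.3 FPKM in WT and at 25.3 and 47.7 FPKM in Asxl1-/- (limma adjusted p = 0.632). The adaptor Crk stood at 20.8 and 29.2 against 40.2 and 35.8 FPKM. Without overlap, Asxl1-/- was above WT for 5 of the 25 and below it for 5, beside 15.6% and 25.2% of all rows.

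Feedback inhibitors showed fold changes of both signs. Of 15 genes 14 were tested, Fgfrl1 among them, with 0 called, a median of -0.27 (-0.05 without Asxl1-/- replicate 2) and 9 negative. Spry1, a Sprouty protein, was the gene with the smallest p, at 4.55 and 2.84 FPKM in WT and 9.45 and 6.98 FPKM in Asxl1-/- (log2 fold change 0.99, standard error 0.32, limma adjusted p = 0.589). The membrane inhibitor Il17rd stood lower, at 3.08 and 2.65 FPKM against 6.85 and 3.45 in WT, as did the ERK phosphatase Dusp5, at 6.88 and 6.61 against 20.3 and 7.29. The Sprouty-related Spred1 stood at 20.2 and 22.6 FPKM against 16.9 and 17.7 in WT. Without overlap, Asxl1-/- was above WT for 2 of the 14 and below it for 5, beside 15.6% and 25.2% of all rows. Dusp6, the ERK phosphatase often read as a gauge of FGF signalling, stood at 31.6 and 15.5 FPKM in WT and at 8.19 and 21.4 FPKM in Asxl1-/-. Its groups overlapped. Its lowest library was Asxl1-/- replicate 1, as for 27.2% of all rows, whereas Il17rd and Dusp5 were lowest in Asxl1-/- replicate 2.

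Target genes of FGF and ERK signalling stood mostly lower in Asxl1-/-. All 16 were tested, with 0 called, 13 negative (56.8% of all rows) and a median of -0.57, beside -0.07 over all rows. The 3 positive genes, Fos (0.84), Mmp13 (0.41) and Phlda1 (0.40), had overlapping groups, as had Egr1. Fos stood at 283 and 14.4 FPKM in WT and at 63.7 and 217 FPKM in Asxl1-/-. Egr1 stood at 329 and 71.3 against 92.8 and 123 FPKM, and Mmp13 at 0.633 and 115 against 84.6 and 2.89 FPKM. For 7 of the 16, each Asxl1-/- library was under each WT library, as for 25.2% of all rows; the reverse held for 0. An unadjusted limma p under 0.05 was reached by 4, each lower, against 5.41% of all rows. Etv5, an ETS factor induced by FGFs, stood at 13.4 and 15.0 FPKM in WT and at 5.85 and 3.51 FPKM in Asxl1-/- (log2 fold change -1.45, standard error 0.30, limma adjusted p = 0.503). The urokinase receptor gene Plaur stood at 18.0 and 15.8 FPKM against 7.47 and 4.62 (limma adjusted p = 0.503).

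The zinc finger gene Egr3 stood at 9.01 and 6.06 FPKM in WT and at 3.90 and 2.56 FPKM in Asxl1-/-, and Myc at 46.8 and 27.0 against 20.0 and 7.90. For both, as for Etv5 and Plaur, the lowest library was Asxl1-/- replicate 2. In each of these genes both Asxl1-/- libraries lay under both WT libraries, so the lowest had to be an Asxl1-/- library. The list median relative to the mean of the 4 libraries was 0.71 and 0.28 in WT and -0.33 and -0.61 in Asxl1-/-. Several of these genes respond to many growth factors and to serum. Without WT replicate 2 the median of the list was -1.26 and without Asxl1-/- replicate 1 it was -0.86.

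**Figure D5:**
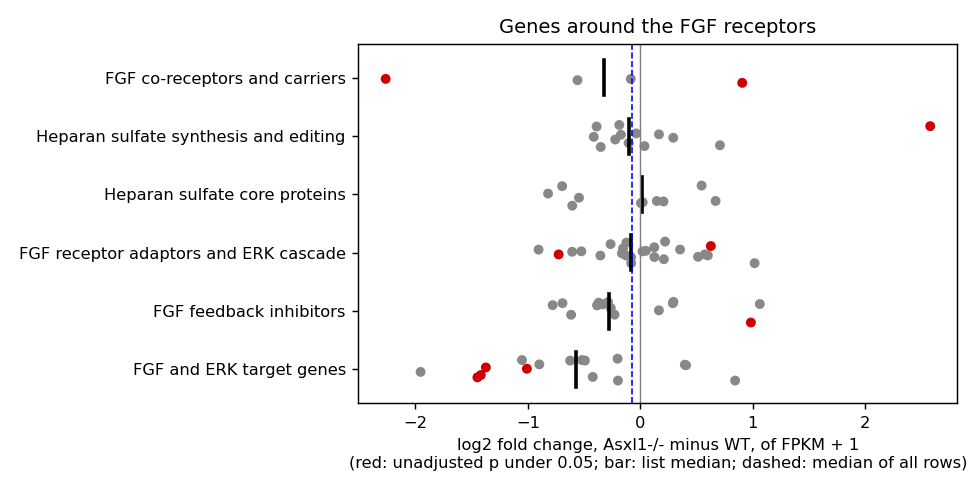
Log2 fold changes (Asxl1-/- minus WT, of FPKM + 1) of the tested genes of 6 lists around the FGF receptors; each point is 1 gene, red with an unadjusted limma p under 0.05, and black bars are list medians. The median of the target genes lies at -0.57, left of the -0.07 of all rows (dashed line), and that of the adaptors and kinases at -0.08.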

How the data were processed

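The 4 libraries (2 WT, 2 Asxl1-/-) were grouped by the genotype label; replicates were numbered in accession order and pair no samples. The submitters' processing notes name TopHat2 (2.0.3), Cufflinks (2.2.1), Cuffdiff and mm10 as what the authors used. Annotation, strandedness and library kit were not given in the sources used here. The FPKM values were deposited as Cufflinks gives them, scaled to transcript length and to mapped fragments; 24487 rows were read, and 2 sample columns without a matching label were left out. The authors' deposited Cuffdiff table gives group FPKM, a log2 fold change, a p-value and a q-value. Starts were written with 1 added to the file's value. Short rows (under 300 bp) held 21.4% to 40.9% of the FPKM sum. Relative depth was read from the pile-up of ratios among low FPKM, searched only near 1.

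Rows with a mean of at least 1 FPKM were tested with limma (3.58.1, R 4.3.3; lmFit, eBayes with trend) on log2(FPKM + 1), with Benjamini-Hochberg adjustment over all of them at 0.05, two-sided. The code of the fit was also run on simulated data. Those data had larger changes than the tested members and less noise than most of them, so the run does not measure power here. The 13 alternatives changed the pseudocount (0.1 or 0.5), the filter (none, or 5 FPKM), the scaling (quantile, or median ratio), the variance model (robust, or no trend) and the rows (no short ones), or left out each library in turn. The 10 genes and the lists were chosen with earlier results of these data known. Named are the 10 genes, other FGF rows with a mean of at least 1 FPKM, and Asxl1. From each list, up to 4 genes with the smallest p and no overlap between the groups are named. Also named are 3 genes nearest in pattern to the most variable ligand and receptor among the tested members. Dusp6, Kl, Klb, Xylt2, Nudt6, Fam227b, Fos, Egr1, Mmp13, Phlda1 and marker genes were added after their values were seen. Python (3.11.15; pandas 2.3.3, numpy 2.4.6, matplotlib 3.10.9) made the tables and figures.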

Additional observations from a re-analysis of the deposited data

How the results depend on the processing

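No paired analysis was possible because the labels give the libraries no shared replicate number. Over 13 alternatives the fold changes of the tested genes were recomputed 76 times, and in 74 the sign stayed. The alternatives of filter, variance model and short rows leave a fold change as it is, so they could not turn a sign. The sign turned with 1 library left out, where Fgf10 ranged from -0.60 (without Asxl1-/- replicate 2) to 0.86. Fgfrl1 ranged there from -1.11 to 0.37 (without Asxl1-/- replicate 1). Members called numbered 0 in every setting. With no filter, 1 of the 10 members (Fgf21) had an unadjusted limma p under 0.05. Of the 17382 rows in that fit, 401 were higher and 899 lower with such a p. Without Asxl1-/- replicate 2 the log2 fold change was -2.43 for Fgfr2 and -1.11 for Fgfrl1. Of all rows, 0 to 4 were called higher and 3 to 6 lower with a library left out; 1 was called lower with no filter and 0 without short rows. Leaving out 1 library moved the median log2 fold change between -0.84 and 0.37 for all FGF rows, -0.84 and 0.18 for the tested members, -0.67 and 0.032 for co-receptors and carriers, -0.0746 and -0.0095 for heparan sulfate synthesis and editing, -0.23 and 0.40 for heparan sulfate core proteins, -0.0100 and 0.052 for adaptors and the ERK cascade, -0.23 and -0.047 for feedback inhibitors and -1.26 and -0.68 for target genes. The adaptor median was 0.036 at a mean of at least 5 FPKM, 0.073 with quantile normalization and 0.0085 with median ratio scaling. The cause was not tested. A fit with 1 library in a group assumes that it varies like the other group. The read number is unknown, so levels near the floor are given without a counting error.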

Other observations

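Some genes of the FGF system lay under the filter on low values yet had groups that did not overlap; they were picked after their values were seen. Fgf13, an intracellular FGF homologue that binds sodium channels and is not secreted, stood at 0.551 and 0.517 FPKM in WT and at 0.0412 and 0.0222 FPKM in Asxl1-/-. In a fit without the filter its unadjusted limma p was 0.000778 and its adjusted p 0.522, and in the authors' deposited table its log2 fold change was -3.96 with a q of 0.882. The heparan sulfate sulfotransferase Ndst3 stood at 1.37 and 0.285 FPKM in WT and at 0.00717 and 0.0232 FPKM in Asxl1-/-. Hs3st1, another such enzyme, stood at 2.65 and 0.476 FPKM in WT, and in Asxl1-/- at 0.404 FPKM and, in replicate 2, listed at 0. Flrt3, of the same family as Flrt2, stood at 1.10 and 0.539 FPKM in WT and at 0.0586 and 0.126 FPKM in Asxl1-/-.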
